A study of Arabidopsis thaliana with 18 samples.

Results

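RNA was sequenced from whole Arabidopsis thaliana plants, and the 2 lines titled maktor1g1 and maktor1g1maktor5g (3 libraries each) were pooled as 1 group of 6 and set against the 3 libraries of the wild type Col0. These are 9 of the 18 libraries of the series, chosen by title alone. The labels give both lines the single genotype name maktor mutant, in the Col0 background. Which gene or genes carry the maktor alleles, and how these were made, is not in the labels. The 9 other libraries (lst8-1, yak1 and yak1lst8-1, 3 each) entered the statistical model only to share its estimate of the spread, and their levels are quoted where they bear on a gene. All plants were untreated, grown in vitro at 20 °C with 16 h of light on medium with 0.3% sucrose, and taken at Boyes stage 1.02, when the first rosette leaves are open. No label gives an hour of harvest. Titles number 3 libraries of each genotype, but 2 biological replicates are mentioned in the design description. The p-values therefore measure the spread between libraries, part of which may be technical.

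The series as a whole concerns TOR, a protein kinase that promotes growth when nutrients and energy are at hand. In plants TOR acts in a complex with RAPTOR and LST8. S6 kinases are among its substrates, and the kinase YAK1 acts as a brake on growth downstream of it. The circadian clock of Arabidopsis, which several of the called genes belong to, is a set of transcription factors that repress one another in turn. The morning factors CCA1 and LHY repress evening genes such as TOC1, GI, ELF4 and LUX, and binding of CCA1-type factors to a short promoter sequence, the evening element, is part of that repression. Leaf starch is made by day and broken down by night, and many of its enzymes cycle under clock control.

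The promoter stretches below are shown first, because they belong to genes that rose in the maktor lines and hold the evening element AAAATATCT within 500 bases upstream of the annotated start. Each is the RefSeq TAIR10.1 sequence on the gene's own strand, 5′ to 3′, with up to 25 bases either side of the copy nearest the start. Capitals mark the element, or AGATATTTT where it reads on the other strand. TOC1 lies at chr5:24674787-24674845 (plus strand), LUX (listed as PCL1) at chr3:17182964-17183022 (plus) and FKF1 at chr1:25508428-25508486 (plus). PWD lies at chr5:9261421-9261478 (plus), ERD3 at chr4:10464513-10464571 (minus) and BBX8 at chr5:19563833-19563875 (minus).
TOC1: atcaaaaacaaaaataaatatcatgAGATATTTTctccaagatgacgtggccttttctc
PCL1: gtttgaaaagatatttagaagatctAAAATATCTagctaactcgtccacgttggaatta
FKF1: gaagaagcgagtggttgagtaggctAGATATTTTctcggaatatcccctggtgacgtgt
PWD: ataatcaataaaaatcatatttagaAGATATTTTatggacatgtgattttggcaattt
ERD3: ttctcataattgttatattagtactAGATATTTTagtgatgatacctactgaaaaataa
BBX8: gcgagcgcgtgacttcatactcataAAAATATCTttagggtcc

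Levels are given as CPM (a library's reads on a gene relative to its total), scaled by trimmed-mean (TMM) factors. Differences are log2 fold changes of maktor over Col0 with their standard error (SE), from edgeR's quasi-likelihood test, and a gene is called where its Benjamini-Hochberg adjusted p over all tested genes is under 0.05. Between 12872631 and 17548790 reads were counted per library in these 9. Leaf, root, stomata and trichome markers had counts in all 9 libraries (3 of 3, 9 of 9 and 5 of 5), as did 2 of 4 shoot meristem markers, whereas the 4 seed storage markers summed to at most 0.38 CPM. The summed leaf markers were 30000 to 32600 CPM in Col0 and 25300 to 30100 in maktor, and the summed root markers 201 to 270 and 242 to 322.

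One wild-type library stood apart in touch and wound genes. Col0 library 3 had the highest level among the 9 libraries of all 13 tested genes of a list of rapid touch and wound genes. WRKY40, a stress-induced transcription factor, was at 4.27, 3.77 and 31.2 CPM in Col0 libraries 1, 2 and 3, and at 2.21 to 5.33 in the maktor libraries. None of the 13 genes was called by edgeR (9 at an unadjusted p under 0.05, 1 by DESeq2), and their median log2 fold change of -0.69 became -0.15 without Col0 library 3. Of the 66 genes called lower in maktor, 42 had their highest Col0 value in that library. For this reason adjusted p or log2 fold changes without it are given beside most of the called genes below. Over all genes, Col0 library 1 differed more from the rest. Chi-square over degrees of freedom, a measure of difference relative to counting error, was 8.1 and 14.8 for library 1 against libraries 2 and 3. It was 5.71 between libraries 2 and 3.

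**Figure D1:**
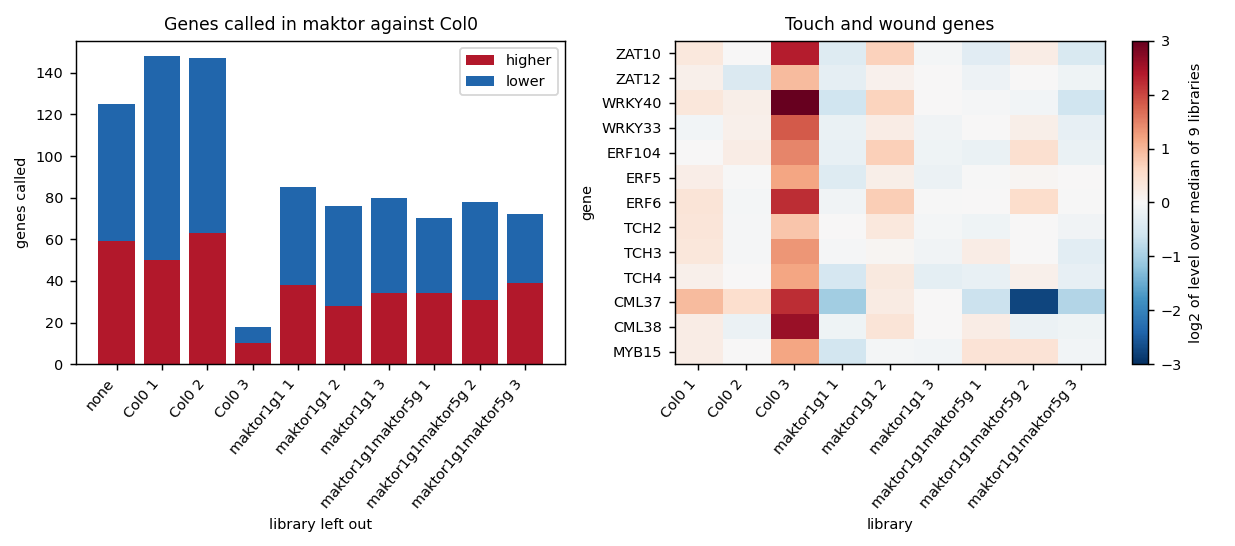
Left, number of genes called higher (red) and lower (blue) in the pooled maktor lines against Col0 with all libraries (none) and with each library of the comparison left out in turn: 125 genes were called with all libraries and 18 without Col0 library 3. Right, log2 of each library's level over the median of the 9 libraries for the 13 touch and wound genes, where Col0 library 3 is the highest in every row.

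Pooling both lines gave a small set of mostly modest changes. Of 20619 genes tested, 125 (0.606%) were called, with 59 higher (0.286%) and 66 lower (0.32%). A change of 2-fold or more was seen in 14, of which 3 rose and 11 fell. At an unadjusted p under 0.05 the share was 13.5%. The median size of the called changes was 0.486 on the log2 scale, and the median over all tested genes was -0.00392. In 123 of the 125 genes the 6 maktor and 3 Col0 libraries did not overlap, which was so for 6.34% of all tested genes. Without Col0 library 3 only 18 genes were called (10 higher, 8 lower), 15 of them among the 125. All 125 kept their direction there, which the lack of overlap largely fixed in advance. Of the 125, 114 kept their log2 fold change within 1.5 times, and the median size over all 125 was 0.459. Without Col0 library 1, 148 genes were called, 79 of them among the 125. DESeq2 on the same counts called 386 genes, 122 of the 125 among them. Another edgeR fit had a term for the library number in the titles (a replicate block). It called 985 genes, all 125 among them. The edgeR calls below are without that term unless stated.

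The 2 lines gave much shorter lists when each was set against Col0 alone. In maktor1g1, 14 genes were called (0.0679%), 7 in each direction (0.0339% each), and 8.53% had an unadjusted p under 0.05. In maktor1g1maktor5g 14 were also called (0.0679%), again 7 in each direction (0.0339% each), and 11.4% had an unadjusted p under 0.05. Directly compared with each other, the lines differed at 2 genes (0.0097%), 1 in each direction (0.00485% each), with 1.75% at an unadjusted p under 0.05. Of the 36 genes named by a fixed rule from the pooled comparison, all 36 had the same sign in both lines. Of these, 6 were called in both lines on their own, 2 in maktor1g1 only, 1 in maktor1g1maktor5g only and 27 in neither. The line-to-line difference was called for 0 of the 36 by edgeR, with 0 at an unadjusted p under 0.05 and 0 by DESeq2. Its size was at most 0.33 on the log2 scale, with a median of 0.07. Both line comparisons use the same 3 Col0 libraries, so the shared sign is not independent evidence from each line. The shared sign also follows from the choice of genes. In all 36 the 6 maktor libraries lay wholly above or wholly below the 3 Col0 libraries, as the rule asked of most.

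**Figure D2:**
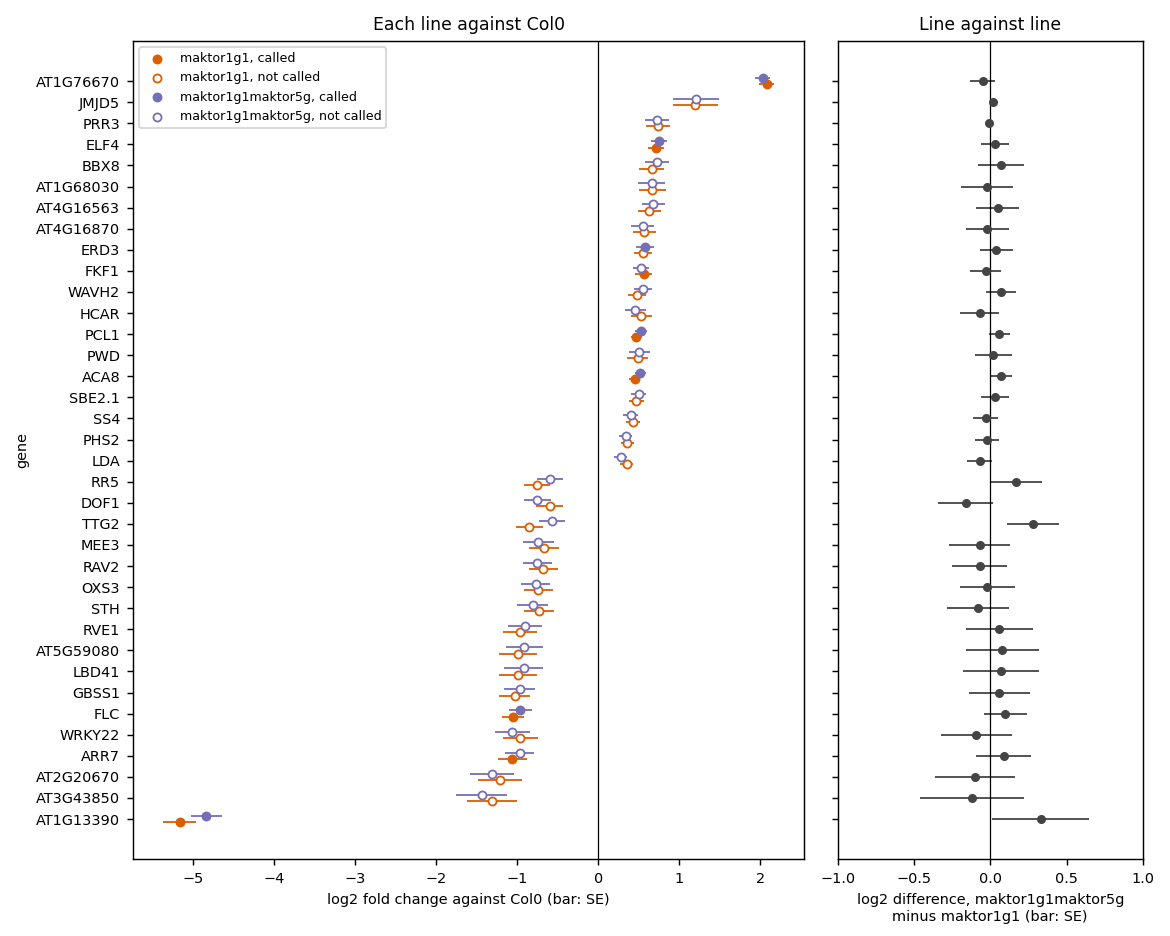
Left, log2 fold change against Col0 of the 36 named genes in maktor1g1 (orange) and maktor1g1maktor5g (purple), with SE bars and filled points where the line on its own was called; AT1G13390 lies lowest at -5.17 and -4.84, and AT1G76670 highest at 2.08 and 2.03. Right, the difference between the lines for the same genes with SE bars (no bar where the difference was too close to 0 for an SE), all within 0.33 of 0.

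The 2 genes with the smallest adjusted p both lie on chromosome 1. AT1G13390, annotated as a protein of unknown function with the product name translocase subunit SecA, was almost absent from the maktor libraries. Its counts were 299, 293 and 328 in Col0, 4, 12 and 11 in maktor1g1 and 14, 13 and 8 in maktor1g1maktor5g. In CPM it fell from 20.8 ± 1.52 (SD, n = 3) to 0.642 ± 0.217 (SD, n = 6), 31.8-fold lower. Its log2 fold change was -4.99 (SE 0.15, edgeR adjusted p = 1.97e-14), with -5.17 in maktor1g1 and -4.84 in maktor1g1maktor5g, both called. Without Col0 library 3 it was -5.03 (adjusted p = 3.58e-13). It was at 10.8 to 38.0 CPM in the 9 libraries of the other genotypes, so a near-absent level was seen in the maktor libraries alone among the 18. AT1G68490, which the annotation names as its closest match, was at 43.3 to 50.3 CPM in Col0 and 44.6 to 50.4 in maktor (log2 fold change 0.03, SE 0.07, adjusted p = 0.895). The 10 tested genes nearest to AT1G13390 on the chromosome changed by -0.53 to 0.48, and 1 of them, AT1G13360, was called (0.36, adjusted p = 0.0414). Where along the gene the remaining reads lie is not recorded in a count per gene.

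URGT1 (AT1G76670), a Golgi transporter of UDP-rhamnose and UDP-galactose, the sugar donors for cell-wall pectin, rose in every maktor library. Its level was 23.3, 25.1 and 24.0 CPM in Col0 and 92.8 to 104 in maktor (median 101), a 4.16-fold rise (log2 2.06, SE 0.08, edgeR adjusted p = 1.51e-12). Both lines were called, at 2.08 and 2.03, and without Col0 library 3 the change was 2.05 (adjusted p = 1.3e-10). The libraries of lst8-1, yak1 and yak1lst8-1 were at 79.9 to 115 CPM, so it was the Col0 libraries that had the low level among all 6 genotypes. None of its 10 nearest tested neighbours was called.

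Further genes were called in both lines and in all 9 fits that each left out 1 library. FLC, the MADS-box repressor of flowering, fell from 13.8, 15.7 and 15.4 CPM in Col0 to 6.29 to 8.34 (median 7.51) in maktor. This is 2.0-fold lower (log2 -1.0, SE 0.11, edgeR adjusted p = 0.000172; without Col0 library 3, adjusted p = 0.00288), with -1.05 and -0.96 in the 2 lines. Of the 12 tested flowering genes FLC was the only one called (1 of 12, beside 0.606% of all genes). Its relatives MAF1 to MAF5 had values of 0.04, 0.16, 0.07, -0.48 and -0.56, and the flowering inducers FT and SOC1 of 0.65 (adjusted p = 0.374) and 0.09. FLC was lower than in Col0 in the other genotypes too, at 3.17 to 13.1 CPM.

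ACA8, a plasma membrane calcium pump, rose from 170, 182 and 191 CPM to 240 to 266 (median 252), by 0.49 (SE 0.06, edgeR adjusted p = 0.000712). The lines stood at 0.45 and 0.52, both called, and without Col0 library 3 the change was 0.53 (adjusted p = 0.00288). In bulk tissue a change in the share of a cell type and a change in RNA per cell cannot be told apart, here and in all that follows.

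**Figure D3:**
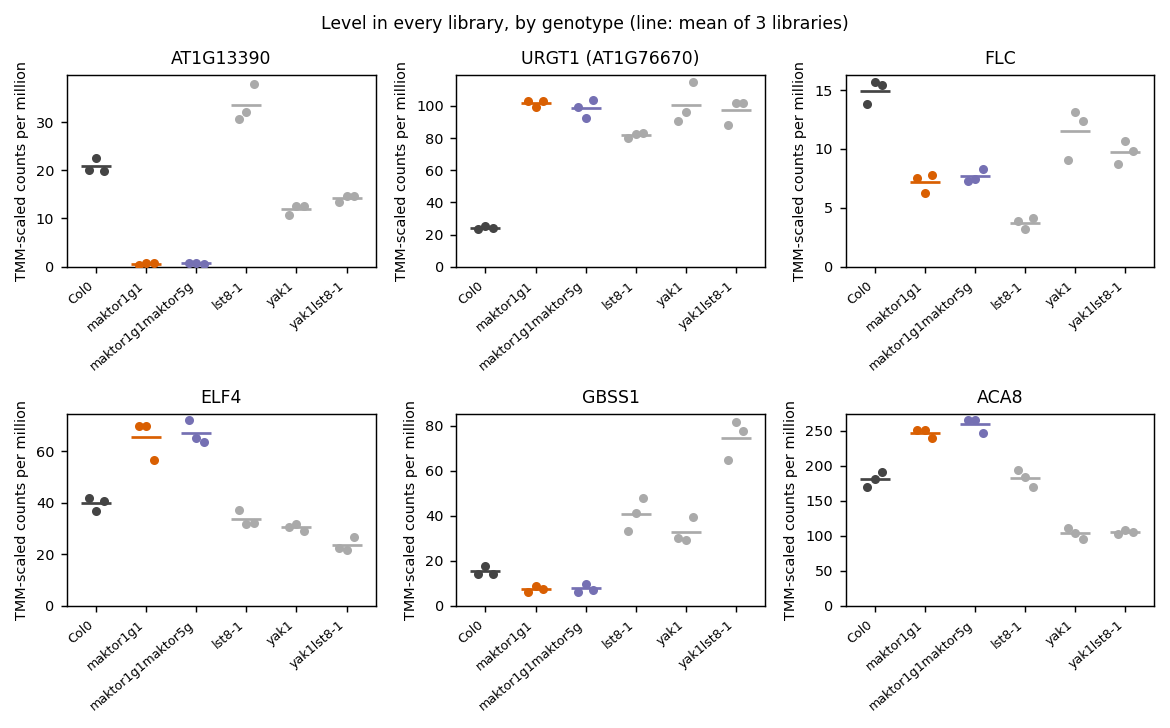
TMM-scaled CPM of 6 genes in every library, by genotype, with a line at the mean of 3 libraries; Col0 is black, maktor1g1 orange, maktor1g1maktor5g purple and the other genotypes grey. AT1G13390 is under 1 CPM in the maktor libraries alone, URGT1 is low in Col0 alone, and ELF4 and ACA8 have their highest levels, GBSS1 its lowest, in the 6 maktor libraries.

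The clock list had more called genes than any other of the lists. Of 17 clock genes on the list tested, 5 were called higher and 0 lower by edgeR (beside 0.286% and 0.32% of all genes), all 5 of them evening genes. Split by phase, a split made after the values were seen, the 7 evening genes all had positive values with a median log2 fold change of 0.46. The 9 morning genes had a median of -0.37, 7 of them negative, and 0 were called by edgeR's main fit (4 at an unadjusted p under 0.05, 2 by DESeq2). With the replicate block 5 of the evening genes were called higher and 4 of the morning genes lower. Over all 20619 tested genes that fit called 391 higher and 594 lower. Without Col0 library 3, 3 of the 5 evening genes were still called.

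ELF4, a small protein of the evening complex that shuts off morning-loop genes at night, rose most in that list. Its levels were 42.0, 36.7 and 40.9 CPM in Col0 and 56.7 to 72.1 (median 67.5) in maktor, with no overlap. The change was 0.73 (SE 0.08, edgeR adjusted p = 0.000172) and both lines were called, at 0.71 and 0.75. LUX, the DNA-binding partner of ELF4 in the evening complex, went from 48.2, 47.8 and 48.8 CPM to 61.7 to 74.1 (median 68.8). It rose by 0.50 (SE 0.06, adjusted p = 0.000688), at 0.47 and 0.53 in the lines, both called. The LUX model overlaps AT3G46650 on the other strand over 1507 bases, and since the strand setting of the counting is not stated, reads of the 2 may be mixed. AT3G46650 itself had 0.984 CPM in Col0 and 1.25 in maktor.

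FKF1, a blue-light receptor that targets repressors of flowering for breakdown, was at 83.7, 76.5 and 81.0 CPM in Col0 and 111 to 123 (median 118) in maktor. It rose by 0.55 (SE 0.09, edgeR adjusted p = 0.00769) and was called on its own in maktor1g1 (0.56) but not in maktor1g1maktor5g (0.53, adjusted p = 0.0538), and the difference of -0.03 between the lines was not called. ELF4, LUX and FKF1 are the 3 evening genes still called without Col0 library 3 (adjusted p = 0.00281, 0.00559 and 0.0414).

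TOC1, the pseudo-response regulator that represses CCA1, rose by 0.46 (SE 0.10, adjusted p = 0.0386), from 115 to 130 CPM in Col0 to 148 to 185. GI, a scaffold protein that works with FKF1, rose by 0.29 (SE 0.06, adjusted p = 0.0406), from 189 to 222 CPM to 238 to 274. Both had like values in the 2 lines (0.44 and 0.48 for TOC1, 0.28 and 0.30 for GI), neither line was called alone, and without Col0 library 3 their adjusted p was 0.114 and 0.13. TOC1 and GI were each called in 2 of the 9 fits that left out 1 library. PRR5 (0.29) and ELF3 (0.21), the remaining evening genes, had adjusted p of 0.314 and 0.193.

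More clock-associated genes passed the test. PRR3, a pseudo-response regulator that stabilises TOC1, rose by 0.74 (SE 0.13, edgeR adjusted p = 0.0126), from 20.7 to 24.2 CPM to 31.0 to 41.4. JMJD5, an evening-expressed histone demethylase, rose by 1.21 (SE 0.25, adjusted p = 0.0329). Its levels were 7.61, 4.69 and 5.57 CPM in Col0 and 9.88 to 19.6 in maktor, with both libraries numbered 1 at 19.6. RVE1, a morning-phased MYB-like factor, fell by 0.93 on the log2 scale (SE 0.17, adjusted p = 0.0197), from 11.9, 16.2 and 13.4 CPM to 5.44 to 10.3. The lines were at 0.74 and 0.73 for PRR3, 1.2 and 1.21 for JMJD5 and -0.96 and -0.90 for RVE1, and neither line was called alone for any of these. The list of 11 these come from was drawn up after values were seen, and the other 8 were not called (0.606% of all tested genes were). Without Col0 library 3 the adjusted p of PRR3, JMJD5 and RVE1 was 0.0895, 0.145 and 0.0943, with changes of 0.7, 1.15 and -0.95. With the 9 libraries of the comparison alone it was 0.00258, 0.126 and 0.0314, so JMJD5 was not called there.

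Among the morning genes CCA1 had the lowest value, -0.70 (SE 0.21, adjusted p = 0.144). It was at 19.6, 23.1 and 21.1 CPM in Col0 and 8.65 to 16.3 in maktor, without overlap. LHY, its close relative, was at -0.54 (adjusted p = 0.148) and RVE8, an activator of evening genes, at -0.55 (adjusted p = 0.123). PRR7 and RVE6 stood at 0.03 and 0.08. CCA1 was at -0.63 in maktor1g1 and -0.77 in maktor1g1maktor5g.

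**Figure D4:**
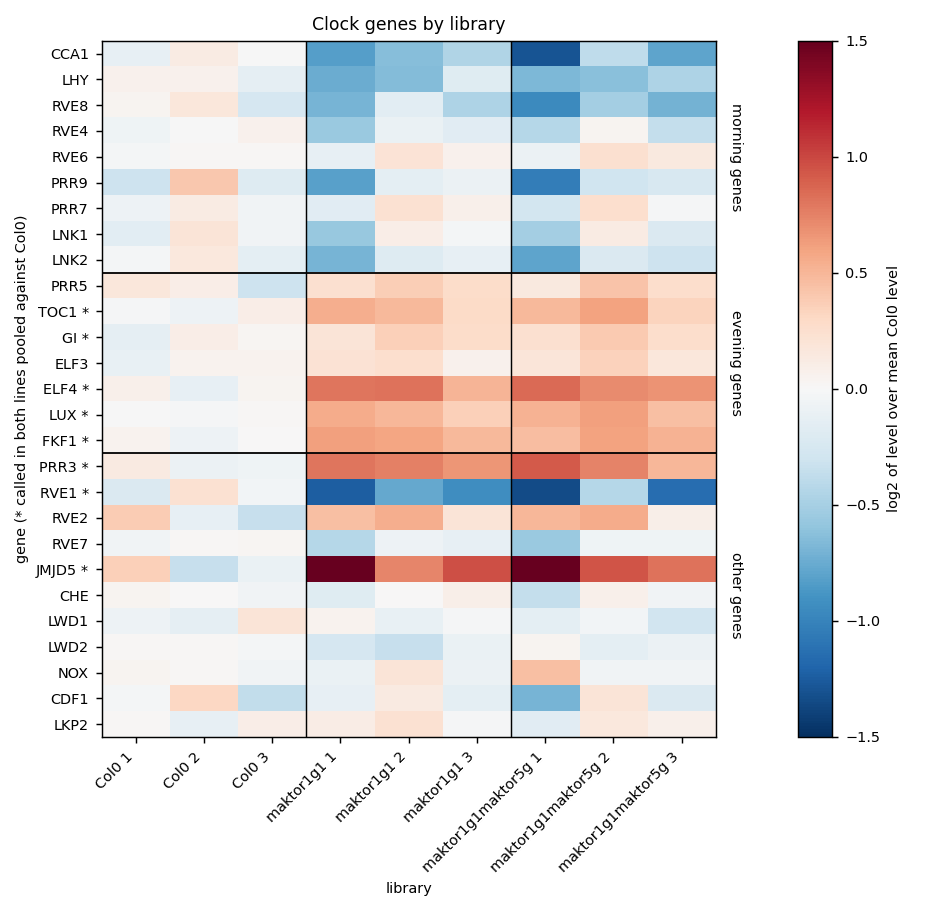
Log2 of each library's level over the mean Col0 level for 27 clock genes (9 morning, 7 evening and 11 others, separated by black lines) in the 9 libraries, with an asterisk on the 8 called genes. The 7 evening genes are red in the maktor columns of both lines, and CCA1, LHY and RVE1 are blue there.

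Levels in the other genotypes lay on the far side of Col0 for several of these genes. PRR3 was at 4.14 to 14.8 CPM in the 9 lst8-1, yak1 and yak1lst8-1 libraries, below Col0, while maktor was above it. RVE1 was at 18.2 to 60.1 CPM there, above Col0, while maktor was below it.

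The evening element shown above was found in 11 of the 59 genes called higher (18.6%), searched as AAAATATCT on both strands of the 500 bases upstream. It was found in 3 of 66 called lower (4.55%), among them FLC, and in 917 of the 20504 tested genes with a full window (4.47%). It was in 4 of 7 evening clock genes and 0 of 9 morning genes. TOC1, LUX and FKF1 are among both these 4 and the 11, so the counts are not independent. The other called-higher genes with it include THIC, which makes a thiamine precursor, NYC1, a chlorophyll b reductase, and BBX13, a B-box zinc finger protein. ELF4, PRR3 and JMJD5 had none in this window. A related motif bound by CCA1, AAAAATCT, was in 8.47% of called-higher, 10.6% of called-lower and 12.3% of all windows. The G-box CACGTG, bound by bHLH and bZIP factors, was in 20.3%, 21.2% and 10.04%. These are counts of letters and do not show that any factor binds.

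Starch genes were looked at through 2 lists drawn up after values were seen. Of 15 genes of starch breakdown, 3 were called higher (beside 0.286% of all genes) and 14 had positive values, with a median log2 fold change of 0.24. PWD, which phosphorylates starch so that it can be degraded, rose from 230, 240 and 222 CPM to 298 to 346 (median 331), by 0.50 (SE 0.11, edgeR adjusted p = 0.0357). PHS2, the cytosolic glucan phosphorylase, rose by 0.35 (SE 0.06, adjusted p = 0.0162), and LDA, a limit dextrinase that cuts branch points, by 0.32 (SE 0.07, adjusted p = 0.0329). The glucan water dikinase SEX1 had 0.36 (adjusted p = 0.0794) and the chloroplast beta-amylase CT-BMY 0.40 (adjusted p = 0.0955), both short of the threshold.

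Of 14 starch synthesis genes, 2 were called higher and 1 lower (beside 0.286% and 0.32% of all genes), with a median of 0.14. SBE2.1, a branching enzyme, rose by 0.49 (SE 0.08, edgeR adjusted p = 0.0101), from 121 to 135 CPM to 175 to 189. SS4, the synthase needed to start granules, rose by 0.41 (SE 0.07, adjusted p = 0.0126), from 149 to 173 CPM to 203 to 231. GBSS1, which makes amylose in the granule, fell from 14.3, 17.8 and 14.1 CPM to 6.30 to 9.87 (median 7.42), by 1.0 on the log2 scale (SE 0.16, adjusted p = 0.00826). GBSS1 was 29.2 to 81.5 CPM in the other genotypes, above Col0.

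The lines were within 0.07 of each other for all 6 called starch genes, and none was called in either line alone. Without Col0 library 3 GBSS1 kept its call (-1.06, adjusted p = 0.0272). The other 5 had adjusted p from 0.0895 (SBE2.1 and SS4) to 0.172 (LDA), with changes of 0.27 to 0.47. Of the 9 fits that each left out 1 library, PWD was called in 1, LDA in 3, and PHS2, SBE2.1 and SS4 in 8.

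**Figure D5:**
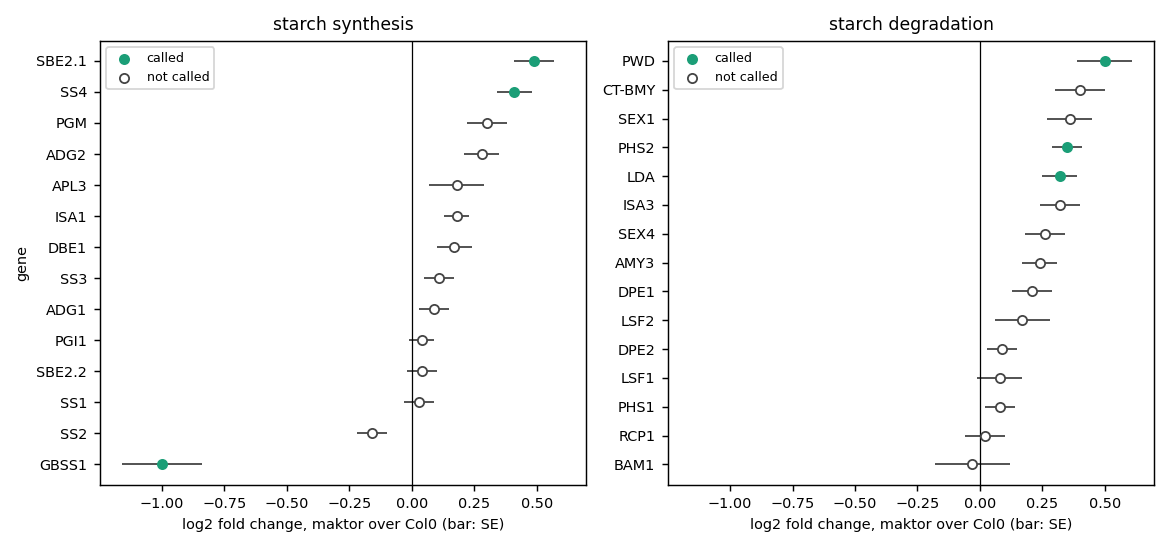
Log2 fold change of both maktor lines pooled over Col0, with SE bars, for 14 genes of starch synthesis and 15 of starch breakdown; green points are called. GBSS1 lies farthest left at -1.0, and 14 of the 15 breakdown genes lie right of 0.

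Type-A response regulators, which are induced by cytokinin and dampen its signal, had 2 of 9 tested members called lower (beside 0.32% of all genes) and a median of -0.41. ARR7 was at 23.3, 21.2 and 40.6 CPM in Col0 and 11.5 to 15.1 in maktor. It fell by 1.01 on the log2 scale (SE 0.15, edgeR adjusted p = 0.00377), with -1.06 in maktor1g1, called alone, and -0.97 in maktor1g1maktor5g (adjusted p = 0.0538). ARR5 (listed as RR5) was at 26.9, 24.9 and 45.1 CPM in Col0 and 17.3 to 21.8 in maktor, a fall of 0.67 (SE 0.14, adjusted p = 0.0329). Col0 library 3 was the highest for both. Without it ARR7 was at -0.66 (adjusted p = 0.00559) and ARR5 at -0.35 (adjusted p = 0.181), a change in size of more than 1.5 times for each. Of the 9 fits that each left out 1 library, ARR7 was called in 9 and ARR5 in 2. ARR6 stood at -0.59 (adjusted p = 0.0508).

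More of the named called-lower genes can be set in 2 kinds by their Col0 values. In one kind Col0 library 3 was not the highest. STH, a B-box protein of light signalling, was at 16.7, 19.6 and 16.7 CPM in Col0 and 7.98 to 12.2 in maktor (-0.77, SE 0.16, edgeR adjusted p = 0.0329). The MYB-like factor MEE3 (-0.70) and TTG2, a WRKY factor of trichome and seed coat development (-0.70), were at 8.72 to 9.24 and 5.07 to 7.0 CPM in Col0 and 4.62 to 6.59 and 3.27 to 4.31 in maktor. None of STH, MEE3 and TTG2 was called without that library (adjusted p = 0.117, 0.141 and 0.13), with changes of -0.82, -0.73 and -0.71. Leaving out other libraries also cost these calls. Of the 9 fits that each left out 1 library, STH was called in 2, MEE3 in 0 and TTG2 in 3. APR1, which reduces activated sulfate in sulfur assimilation, fell from 85.0, 96.7 and 86.1 CPM to 57.8 to 70.4 (-0.48, SE 0.08, adjusted p = 0.00799). It kept its call without Col0 library 3 (-0.51, adjusted p = 0.0272). Of 13 sulfur starvation genes it was the only one called (beside 0.32% of all genes called lower). It was called alone in maktor1g1 (-0.51) and not in maktor1g1maktor5g (-0.45, adjusted p = 0.0668).

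In the other kind Col0 library 3 was well above the other wild-type libraries, as it was for the touch genes. AT2G20670, of unknown function, was at 161, 183 and 296 CPM in Col0 and 65.3 to 118 in maktor (-1.26, SE 0.21, adjusted p = 0.0171; -0.95, adjusted p = 0.117 without that library). WRKY22, a defence transcription factor, was at 11.9, 7.39 and 18.0 CPM against 5.44 to 7.25 (-1.01, adjusted p = 0.0156; -0.64 and 0.13). LBD41, a gene induced by low oxygen, was at 11.6, 14.9 and 24.8 CPM against 6.48 to 11.1 (-0.95, adjusted p = 0.0329). Without that library its values were -0.58 and 0.20. It was the only one of 9 hypoxia genes called (beside 0.32% of all genes called lower). RAV2, a repressor of flowering, and the zinc finger factor DOF1 had -0.72 and -0.67, and -0.48 and -0.32 without that library. Of the 9 fits that each left out 1 library, AT2G20670 and WRKY22 were called in 8, LBD41 in 4, RAV2 in 5 and DOF1 in 2. Neither line was called alone for any of these 5 genes. The part that this library's touch and wound profile has in these values was not tested.

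The remaining named genes moved by like amounts in both lines. Among genes called higher were BBX8, a B-box zinc finger protein (0.69; lines 0.66 and 0.73), and WAVH2, a ubiquitin ligase of root gravitropism (0.52; lines 0.48 and 0.55). HCAR, which reduces hydroxymethyl chlorophyll a, rose by 0.50 (lines 0.53 and 0.46), and ERD3, a predicted methyltransferase first found as drought-responsive, by 0.56. ERD3 was called alone in maktor1g1maktor5g only. AT1G68030, AT4G16563 and AT4G16870 had rises of 0.66, 0.65 and 0.56. Among those called lower were OXS3, a stress-tolerance protein (-0.75), AT3G43850 (-1.37) and AT5G59080 (-0.95). AT5G59080 was at 21.2, 24.2 and 38.5 CPM in Col0 and 11 to 17.5 in maktor, so Col0 library 3 was well above the others here too. Apart from ERD3 none of these was called in a line alone. None of these genes was called without Col0 library 3. The adjusted p there was 0.13 for BBX8, 0.114 for WAVH2, 0.192 for HCAR, 0.0747 for ERD3 and 0.204 for AT1G68030. It was 0.13 for AT4G16563, 0.145 for AT4G16870, 0.136 for OXS3, 0.13 for AT3G43850 and 0.171 for AT5G59080. HCAR, AT1G68030 and AT4G16870 were each called in only 1 of the 9 fits that left out 1 library. Reads of AT1G68030 and AT5G59080 may be mixed with an opposite-strand neighbour that overlaps them by 207 and 2321 bases.

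TOR pathway genes themselves gave no call in the main fit. None of 9 tested members of the list was called by edgeR (2 at an unadjusted p under 0.05, 0 by DESeq2), with values from -0.08 to 0.30 and a median of 0.07. TOR was at 61.3, 95.7 and 102 CPM in Col0 and 98.6 to 119 in maktor (0.30, SE 0.11, adjusted p = 0.217), with 0.26 and 0.34 in the lines. Its partner RAPTOR1 was at 0.22 (adjusted p = 0.217, and 0.0331 with the replicate block, where it was the 1 list member called). For both the groups overlapped and Col0 library 1 was lowest. RAPTOR2 was at 0.07, LST8-1 at -0.01, YAK1 at 0.09, S6K1 (listed as PK1) at -0.08 and S6K2 at 0.12. TAP46, a phosphatase subunit that TOR acts on, and E2FA (listed as E2F3), a cell cycle factor that TOR activates, stood at 0.07 and 0.04. The signs of the lines were opposite for E2FA (0.17 and -0.1). S6K2 was at 0.00 in maktor1g1 and 0.23 in maktor1g1maktor5g, and no line difference was called. LST8-2 had a count of 0 in all 18 libraries.

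Across all 27 gene lists, 11 of 397 distinct tested genes were called, 5 higher and 6 lower, beside 0.606% of all tested genes. They came from 6 lists. The lists on autophagy (28 genes, median 0.05), ribosome biogenesis (7 genes, median -0.06) and cell division (19 genes, median -0.11) had none called by edgeR (5, 1 and 2 at an unadjusted p under 0.05, and 0 each by DESeq2). Nor did the lists on salicylic acid defence (24 genes, median -0.08), iron (23 genes, median -0.06) or sugar starvation (19 genes, median -0.16), which had 1, 1 and 7 at an unadjusted p under 0.05 and 0, 0 and 4 by DESeq2. In the last, ASN1 and DIN1, classic dark- and starvation-induced genes, had values of -1.26 and -1.21 with adjusted p of 0.145 and 0.0771, and Col0 library 3 was their highest at 139 and 70.7 CPM. Of 23 nuclear photosynthesis genes 22 had negative values (median -0.15) and 0 were called by edgeR (6 at an unadjusted p under 0.05, 2 by DESeq2), with LHCB1.1 lowest at -0.57 (adjusted p = 0.0516). Root hair and epidermis genes had a median of 0.44, with 9 of 11 positive and RSL4, a root hair growth regulator, highest at 0.53 (adjusted p = 0.162); 0 were called by edgeR (4 at an unadjusted p under 0.05, 0 by DESeq2). The summed leaf and root markers given above moved in the same directions, with ranges that overlapped between Col0 and maktor. The leaf markers are themselves nuclear photosynthesis genes and RSL4 is among the root markers, so their directions are not independent of these lists. The part of the marker tissues in these values was not tested. With the replicate block, 5 sugar starvation, 5 nuclear photosynthesis and 2 cell division genes were called lower. So were 1 gene each of the iron, ribosome biogenesis and autophagy lists. That fit called 2 genes higher in autophagy and 2 in root hair and epidermis, and 0 in salicylic acid defence. Over all 20619 tested genes it called 391 higher and 594 lower.

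Both genes that differed between the lines lie on chromosome 5. AT5G37130, a predicted prenyltransferase family protein, was at 45.1, 45.6 and 42.1 CPM in maktor1g1 and 78.1, 75.4 and 73.1 in maktor1g1maktor5g, with Col0 at 38.1 to 42.6. The lines differed by 0.77 (SE 0.09, edgeR adjusted p = 0.00244), and the gene was called against Col0 only in maktor1g1maktor5g (0.91, adjusted p = 7.36e-05). AT5G35935, uncharacterised, went the other way, at 19.7, 17.1 and 17.6 CPM in maktor1g1, 11, 10.7 and 8.96 in maktor1g1maktor5g and 9.81 to 11.1 in Col0. The difference was -0.83 (SE 0.12, adjusted p = 0.0251). The level of AT5G35935 also varied among the other genotypes, with means of 18.4 CPM in lst8-1, 1.1 in yak1 and 1.74 in yak1lst8-1. Counting along the chromosome, YAK1 is 4 tested genes away from it. Pooled over both lines neither gene was called against Col0 (adjusted p = 0.194 and 0.371), and the groups overlapped. With library totals in place of TMM factors 1 of the 2 calls was left.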

How the data were processed

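Polyadenylated RNA was sequenced as single-end reads from stranded libraries, per the labels. Per the submitters' processing notes the reads were processed with TopHat2 and Bowtie2 on TAIR10, with versions and strand setting of the counting not given in the sources used here. Per the file headers, reads with equally good second hits were removed (1.85% to 2.003% of mapped reads in the 9 libraries), so near-identical gene copies are under-counted. The deposited values are raw counts per gene model (33602 models).

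From these counts, 20619 genes passed edgeR's filterByExpr. edgeR 4.0.16 (R 4.3.3; TMM, robust quasi-likelihood fit, two-sided) was fitted to all 18 libraries, with both maktor genotypes as 1 level for the pooled comparison (13 residual degrees of freedom, biological coefficient of variation 10.47%) and as separate levels for the lines (12 and 10.76%). SE is the absolute log2 fold change over the square root of the test's F. A count of 3 corresponded to 0.17 to 0.231 CPM in these 9 libraries. Floors cover counting error only; libraries of 1 genotype differed by more than counting error (chi-square over degrees of freedom 2.99 to 14.8).

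The genes and lists were chosen with earlier results of these data known. Named genes are the 12 largest called rises and falls with a symbol and the 4 largest without, at 5 CPM or more in the higher group and with no overlap between groups; the largest line differences by the same rule, up to 5 each way; the TOR list; and up to 3 called members of each list with at least 2. AT1G68490, APR1, TOC1, GI, other list members outside this rule and the genes added in the closing section were picked after their values were seen. Symbols, products, gene order and promoters come from RefSeq TAIR10.1 (32835 of 33602 models matched). The pipeline was tested on simulated data. Alternatives were DESeq2 1.42.0, other scalings and filters, the 9 libraries alone, leaving out libraries and a replicate block. Same-numbered maktor1g1 and maktor1g1maktor5g libraries deviated together (correlations 0.428, 0.214 and 0.158), so numbers pair in that comparison, a pairing seen in the data and not stated in the labels. The main line-to-line test did not use this pairing. With the replicate block the line-to-line test also called 2 genes.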

Additional observations from a re-analysis of the deposited data

Results flagged for a closer look

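For ARR7, 1 of the 6 maktor libraries lay far from the rest. maktor1g1 library 3 had 11.5 CPM, and its gap to the next library was 0.771 of the group's range, above the critical value of 0.625 for 6 samples. For BXL2, a beta-xylosidase of the cell wall, maktor1g1 library 2 was highest at 47.2 CPM with a gap of 0.717 of the range. BXL2 was called lower in maktor (-0.70, SE 0.15, edgeR adjusted p = 0.046), but its groups overlapped. Its Col0 libraries were at 44.4, 59.7 and 87.2 CPM, and without Col0 library 3 the change was -0.40 (adjusted p = 0.211). The same rule was applied to 51 genes, and chance flags about 1 group in 20.

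The 2 genes that differed between the lines are given here for that difference, AT5G37130 at 0.77 and AT5G35935 at -0.83 on the log2 scale (maktor1g1maktor5g minus maktor1g1). The 10 tested genes nearest to each had no called line difference.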

How the results depend on the processing

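All 125 called genes kept their direction under every alternative run. The runs reuse the same counts and the groups did not overlap in 123 of these genes, so this was largely fixed in advance. The number called in pooled maktor against Col0 moved to 386 with DESeq2 and 985 with a replicate block. It was 95 with the 9 libraries alone, 75 of them among the 125. Under the other scalings and filters and with each line as its own level it was 102 to 133. It ranged from 18 to 148 when 1 library was left out; 18 is without Col0 library 3, and leaving out a maktor library gave 70 to 85, and leaving out the libraries numbered 1 gave 168. For maktor1g1 the count of 14 became 101 with DESeq2, 238 with the block and 6 to 17 with 1 library left out (6 without maktor1g1 library 1 or 3, 8 without its library 2 or maktor1g1maktor5g library 3). For maktor1g1maktor5g the 14 became 157 with DESeq2, 653 with the block, 32 with library totals, 23 without a filter, 32 without the libraries numbered 1 and 8 to 25 with 1 library left out (8 without maktor1g1maktor5g library 3, 25 without Col0 library 1). The line-to-line count of 2 became 1 with library totals, with the 9 libraries alone and without the libraries numbered 1, and 0 to 2 with 1 library left out (0 without maktor1g1 library 3); the block left it at 2. The causes were not tested. For Col0, replicate numbers were not taken as pairs. Same-numbered Col0 and maktor libraries correlated by 0.352 and 0.349 (number 1), 0.0461 and 0.062 (number 2) and 0.0696 and 0.126 (number 3). Those with unlike numbers correlated by -0.255 to -0.135 where 1 was numbered 1, and by 0.11 to 0.213 otherwise. On principal component 3 of the 18 libraries (an axis of shared variation, 11.2% of the variance), library 1 was lowest in every genotype, at -22.57 in Col0. The main fit has no term for this. The block takes its numbers from the titles, and the labels do not say what same-numbered libraries share. All 125 genes were among the 985 called with the block. Of the 36 called genes that the naming rule gave, 9 kept their call without Col0 library 3. With the 9 libraries alone, those that lost it were JMJD5, LDA, AT4G16870, ARR5, WRKY22, LBD41, RAV2, TTG2, DOF1, AT2G20670 and AT5G59080. A design of 3 wild-type libraries limits what small changes can be called.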

Other observations

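A few further called genes are given singly; they were picked after their values were seen, from no list. Beside HCAR (0.50), the chlorophyll b reductase gene NYC1 was called at 0.45 (adjusted p = 0.0126) and PES1, which esterifies phytol released from chlorophyll, at 0.43 (adjusted p = 0.0115). Their means rose from 25.1 to 35.4, from 203 to 278 and from 28.3 to 38.0 CPM. None of these was called without Col0 library 3 (HCAR adjusted p = 0.192).

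GH3.3 and DFL1, which join auxin to amino acids, were called lower by edgeR at -0.57 (adjusted p = 0.0418) and -0.53 (adjusted p = 0.0162), and the homeobox gene HAT2 at -0.45 (adjusted p = 0.0175). DFL1 was called alone in maktor1g1maktor5g. Of the 8 tested genes of the auxin list GH3.3 was the only one called (beside 0.32% of all genes called lower), with a median of -0.27 over the list. ABI3, a seed maturation factor, was called higher at 1.58 (adjusted p = 0.0358) from a very low level, 0.404 CPM in Col0 and 1.22 in maktor. None of these was called without Col0 library 3, where the adjusted p was 0.171 for GH3.3, 0.13 for DFL1, 0.128 for HAT2 and 0.13 for ABI3. GH3.3 and ABI3 were called in 1 of the 9 fits that each left out 1 library, DFL1 and HAT2 in 8.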
